A study of Mus musculus with 8 samples.

Results

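The genes described here are 10 members of the PIWI-interacting RNA (piRNA) pathway, the PIWI proteins Piwil1, Piwil2 and Piwil4 and the factors Mael, Gtsf1, Ddx4, Mov10l1, Pld6, Asz1 and Fkbp6. They were chosen by name for their place in this pathway, with earlier results of these data known. Each was found in both deposited tables. They are thus 10 of the 24281 named loci of the female table and 10 of the 23944 of the male table. PIWI proteins carry short RNAs, the piRNAs, that lead them to the transcripts of transposable elements in germ cells. Long precursor transcripts are unwound, cut at the outer membrane of mitochondria and trimmed, and cytoplasmic PIWI proteins amplify the resulting piRNAs by cutting transposon RNA in turn. In the fetal testis a nuclear PIWI protein also directs DNA methylation to young transposons while prospermatogonia rebuild their methylation, whereas fetal oocytes enter meiosis with little of that nuclear branch.

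The study asked what germ cells need from SWI/SNF, a complex that remodels chromatin and has Snf5 (Smarcb1) as a core subunit, when they take the male or the female path. Germ cells were sorted at E15.5 by the fluorescence of an Oct4-EGFP transgene, which all embryos carried, and RNA-Seq libraries were made from total RNA after cDNA amplification. There were 8 libraries, 2 for each of female Snf5_Ctrl, female Snf5_CKO, male Snf5_Ctrl and male Snf5_CKO, and the methods call them biological duplicates. The conditional knockout (Snf5_CKO) embryos were Snf5 fx/Δ with TNAP-Cre, a Cre recombinase knocked into the Alpl gene that is active in primordial germ cells. The controls (Snf5_Ctrl) were a mixture of Snf5 fx/+, Snf5 fx/Δ and Snf5 fx/+ with TNAP-Cre germ cells, so control cells differed in the number of working Snf5 copies and in whether they carried the Cre. The number of embryos behind a library differed, and each male Snf5_CKO library came from a single embryo or a pair. Recombination by this Cre is not complete, and cells that escaped it stay in the sorted population. The labels give the strain as C57BL/6, whereas the study's methods describe a mixed background.

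Values are FPKM, in which fragments are divided by the length of the transcript and by the depth of the library, as the authors computed them in 1 table per sex. Levels of different genes can therefore be set side by side within a table, but levels were not tested across the tables, which were normalized separately. The tables hold no counts. The steps between low FPKM values gave a depth, as a multiple of that of the same sex's control replicate 1, of 1.89 for female control replicate 2, 1.25 and 2.43 for the female Snf5_CKO replicates, 0.946 for male control replicate 2, and 1.20 and 1.47 for the male Snf5_CKO replicates, and several of these are uncertain by a factor of 2. Each sex was fitted alone with limma on log2(FPKM + 1) over all named loci with a mean of at least 1 FPKM, which kept 11642 loci in females and 12368 in males. A gene was called lower or higher at a Benjamini-Hochberg adjusted p under 0.05 and a log2 fold change (Snf5_CKO over Snf5_Ctrl) of at least 1 in size. The added 1 FPKM understates the fold change of genes with low values. An exact permutation test of 2 libraries against 2 cannot give a two-sided p below 0.333, so the p-values come from limma alone.

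The deleted gene is listed as Smarcb1. It stood at 23.4 and 22.3 FPKM in the female controls, at 4.24 and 2.47 FPKM in female Snf5_CKO, and at 141 and 167 FPKM in the male controls against 8.73 and 10.1 FPKM in male Snf5_CKO. All 4 Snf5_CKO libraries were thus far below the controls of their sex, as labelled. Recombination removes the first exon alone and FPKM cover the whole gene, so these levels are not a measure of the share of recombined cells. Ddx3y, a gene of the Y chromosome, was listed at 0 in all 4 female libraries and at 5.48 to 8.79 FPKM in the 4 male ones, which fits the labelled sex. Xist was low in both sexes, at 0.167 to 0.316 FPKM in females and at 0.0797 to 0.159 FPKM in males, so this check rests on Ddx3y alone.

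Sequence before the start sites of the genes is shown because most of them moved in the same direction, and because germline promoters are known for their CG content and for E-box and E2F-type elements. RefSeq promoter windows on GRCm38 were found for 9 of the 10 genes, all but Piwil2, and the 250 bases before the start site nearest to the 5′ end of the locus in either table were used. For Piwil1 and Gtsf1 that start site lies inside the locus, 28324 and 68373 bases from the nearer of its 5′ ends in the 2 tables. The Gtsf1 locus as listed runs past the annotated gene, whose 5′ end (103430470) lies inside its window. The Piwil1 window lies inside the annotated gene, which begins at 128702524. For Piwil4, Mov10l1 and Ddx4 the start site used lies inside both loci, 61, 72 and 79 bases from the nearer end. The part of these windows next to the start site thus belongs to the locus as listed. The motifs searched on both strands were CACGTG, the E-box core bound by MAX and its partners, GCGGGA, an E2F-type element, and CNCCTCAG, the motif of the meiotic factor STRA8; they share no overlapping match in the sequences printed here. Among all 32851 windows of this length, 6.02% hold CACGTG, 16.9% hold GCGGGA and 6.42% hold CNCCTCAG. These shares cover windows of any CG content, and CACGTG and GCGGGA each hold a CG dinucleotide. Of the 9 genes, 6 have CACGTG (Piwil1, Mael, Pld6, Mov10l1, Ddx4 and Fkbp6), 2 have GCGGGA (Mael and Ddx4) and 0 have CNCCTCAG. These counts depend on the start site: in the other RefSeq windows of these genes, that of Pld6 holds 0 CACGTG, that of Fkbp6 holds 1 CNCCTCAG and that of Piwil4 holds 0 CG dinucleotides. In the windows used, the number of CG dinucleotides runs from 7 in Gtsf1 and 10 in Piwil4 to 31 in Ddx4, each above the median of 6 over all windows, whose quartiles are 2 and 16. The windows of Piwil4 and Gtsf1, which had the 2 lowest male log2 fold changes of the 10 genes, are printed with those of Mael and Ddx4, which are the ones with both an E-box and an E2F-type match. They lie on the minus strand at chr9:14740673-14740922 (Piwil4), chr15:103430428-103430677 (Gtsf1), chr1:166238745-166238994 (Mael) and chr13:112652311-112652560 (Ddx4), read 5′ to 3′ along the gene, with motif matches in capitals.
Piwil4: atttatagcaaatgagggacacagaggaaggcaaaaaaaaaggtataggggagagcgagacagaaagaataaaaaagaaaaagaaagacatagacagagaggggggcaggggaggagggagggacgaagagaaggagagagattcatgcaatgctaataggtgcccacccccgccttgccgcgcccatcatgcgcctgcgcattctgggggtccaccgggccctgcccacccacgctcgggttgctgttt
Gtsf1: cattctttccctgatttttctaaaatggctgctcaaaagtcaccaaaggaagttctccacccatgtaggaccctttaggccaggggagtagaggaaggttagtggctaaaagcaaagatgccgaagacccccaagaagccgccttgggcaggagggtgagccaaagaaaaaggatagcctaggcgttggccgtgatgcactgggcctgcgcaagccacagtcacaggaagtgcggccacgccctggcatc
Mael: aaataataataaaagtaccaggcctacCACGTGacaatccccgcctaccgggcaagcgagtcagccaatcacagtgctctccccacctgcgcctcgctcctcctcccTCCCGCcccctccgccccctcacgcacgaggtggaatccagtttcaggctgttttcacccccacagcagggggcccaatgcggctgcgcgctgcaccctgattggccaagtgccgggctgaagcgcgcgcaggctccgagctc
Ddx4: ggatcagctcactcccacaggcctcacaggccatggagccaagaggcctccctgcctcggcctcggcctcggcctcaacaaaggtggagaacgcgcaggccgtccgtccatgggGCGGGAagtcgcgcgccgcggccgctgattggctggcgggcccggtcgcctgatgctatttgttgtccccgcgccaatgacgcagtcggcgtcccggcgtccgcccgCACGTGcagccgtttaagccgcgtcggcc
In Mael the E-box lies 223 to 218 bases before the start site and the E2F-type match, on the other strand, 143 to 138 bases before it. In Ddx4 the E-box lies 29 to 24 bases and the E2F-type match 136 to 131 bases before the start site, the first inside the Ddx4 locus of both tables and the second inside that of the female table. None of the 3 motifs is in the printed windows of Piwil4 and Gtsf1. A match describes these letters in this window and is not a site of binding.

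Of the PIWI genes, Piwil2 had the highest FPKM in each of the 8 libraries. Piwil2 (also called MILI), the cytoplasmic PIWI protein that fetal germ cells of both sexes make and that drives the amplification of piRNAs, lies at chr14:70372205-70429786 of mm10 in the male table. It was at 72.8 and 79.2 FPKM in the female controls and at 53.5 and 49.0 FPKM in female Snf5_CKO. In males it was at 222 and 137 FPKM in the controls and at 54.4 and 34.8 FPKM in Snf5_CKO. Both Snf5_CKO libraries were below both controls in each sex, and the male controls were the most spread. The male difference was called (log2 fold change -1.98, SE 0.34, adjusted p = 0.00927 from limma). The female one passed the adjusted p but not the size (log2 fold change -0.56, SE 0.17, adjusted p = 0.0243 from limma). On linear FPKM the male call ended (adjusted p = 0.0546 from limma), as it did with no filter on low values (adjusted p = 0.0765 from limma).

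Piwil4 (MIWI2), the nuclear PIWI protein of fetal prospermatogonia that directs DNA methylation, lies at chr9:14701774-14740750. In males it was at 166 and 132 FPKM in the controls and at 3.17 and 3.53 FPKM in Snf5_CKO. The male groups lay far apart, with a control mean of 149 ± 24.5 FPKM (SD, n = 2), and the male log2 fold change of -5.10 (SE 0.19, adjusted p = 0.00222 from limma) was the lowest of the 10 genes. In females Piwil4 was near the bottom of the range, at 2.04 and 2.65 FPKM in the controls and at 0.824 and 0.206 FPKM in Snf5_CKO. This female difference was called as well (log2 fold change -1.17, SE 0.26, adjusted p = 0.00704 from limma), but without female Snf5_CKO replicate 2 it was -0.87 and under the size asked for, and with no filter on low values its adjusted p from limma was 0.106. Exons of Piwil4 overlap those of Gm10706 on the other strand, and since the library kit does not mark strand, reads of the pair cannot be told apart. The printed Piwil4 window holds none of the searched motifs.

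Piwil1 (MIWI), the PIWI protein of pachytene spermatocytes and round spermatids after birth, lies at chr5:128702450-128755495. It was at 15.7 and 13.1 FPKM in the male controls and at 4.98 and 4.42 FPKM in male Snf5_CKO. In females it was at 1.31 and 1.51 FPKM in the controls and at 1.25 and 0.662 FPKM in Snf5_CKO. The male difference was called (log2 fold change -1.43, SE 0.20, adjusted p = 0.00536 from limma) and the female one was not (-0.32, SE 0.22, adjusted p = 0.248 from limma), where female control replicate 1 and female Snf5_CKO replicate 1 were nearly level.

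The RNA of the 3 PIWI genes can be set side by side as shares of their sum. Piwil2 gave 95.6% and 95.01% of the summed FPKM of the 3 genes in the female controls and 96.3% and 98.3% in female Snf5_CKO. In the male controls it gave 55% and 48.7%, and Piwil4 gave 41.1% and 46.7%. In male Snf5_CKO the share of Piwil4 was 5.07% and 8.25%, and that of Piwil2 was 87.0% and 81.4%. The summed level itself was 404 and 282 FPKM in the male controls and 62.5 and 42.8 FPKM in male Snf5_CKO, against 76.2 and 83.4 FPKM and 55.6 and 49.9 FPKM in the corresponding female libraries. These shares are a description and were not tested.

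**Figure D1:**
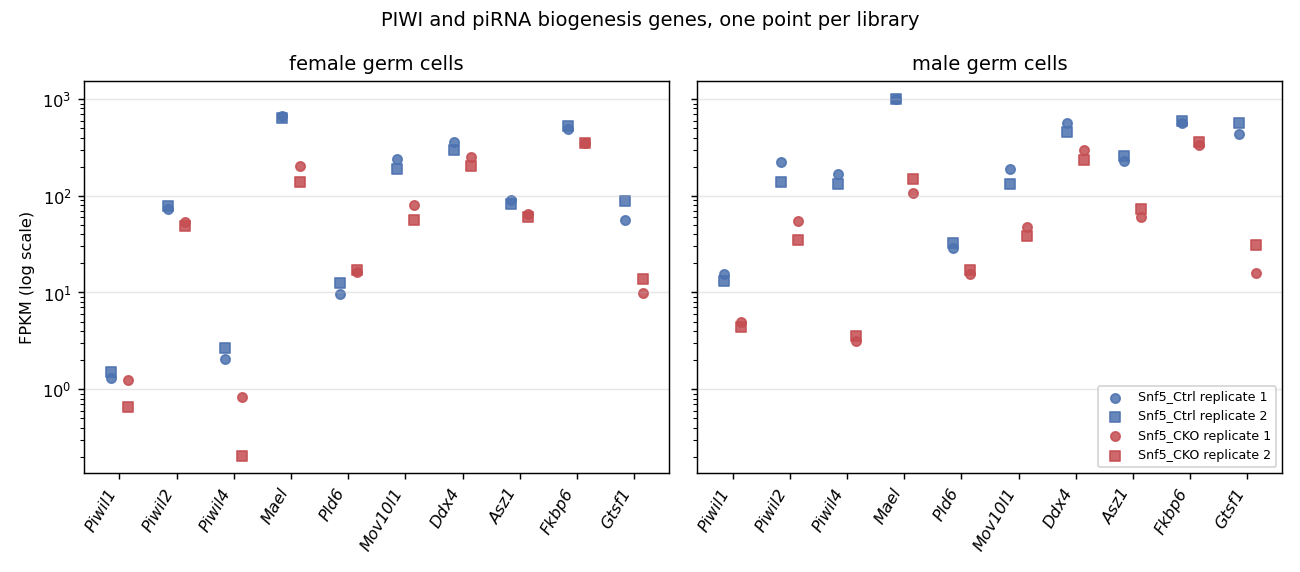
FPKM of the 10 genes on a log axis, with 1 point per library, in female (left) and male (right) germ cells; circles are replicate 1 and squares replicate 2, and the tables of the sexes were normalized separately. Male Piwil4 drops from 166 and 132 FPKM in the controls to 3.17 and 3.53 FPKM in Snf5_CKO, and Pld6 is the gene that lies higher in female Snf5_CKO than in the female controls.

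Gtsf1 and Mael are partners of PIWI proteins in silencing. Gtsf1, a small zinc finger protein that PIWI proteins need to cut their targets and to silence transposons, lies at chr15:103402459-103498800. In males it was at 434.6 and 569.9 FPKM in the controls and at 15.9 and 30.8 FPKM in Snf5_CKO, and in females at 55.8 and 87.4 FPKM in the controls and at 9.86 and 13.8 FPKM in Snf5_CKO. The controls of both sexes were several times above the Snf5_CKO libraries, and both differences were called (log2 fold change -4.43, SE 0.35, adjusted p = 0.00229 in males and -2.48, SE 0.27, adjusted p = 0.000413 in females, from limma). The span of this locus also covers Nckap1l and Gtsf2. A second female locus that joins these names was at 15.2 and 6.15 FPKM in the controls and at 2.0 and 2.25 FPKM in Snf5_CKO and was not used.

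Mael (maelstrom), a protein of the germ cell granules needed for transposon silencing in the fetal testis, lies at chr1:166201385-166238744. It was at 670 and 631 FPKM in the female controls and at 203 and 140 FPKM in female Snf5_CKO. In males it was at 992 and 1005 FPKM in the controls and at 107 and 148 FPKM in Snf5_CKO. Mael was the most abundant of the 10 genes in the controls of both tables, and in Snf5_CKO it was behind Fkbp6 and Ddx4 in both. It was called lower in both sexes (log2 fold change -1.94, SE 0.25, adjusted p = 0.000885 in females and -2.97, SE 0.26, adjusted p = 0.00237 in males, from limma). Its window printed above holds an E-box and an E2F-type match.

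The remaining genes act in piRNA biogenesis or amplification. Mov10l1, the RNA helicase that binds and unwinds precursor transcripts, lies at chr15:88955884-89055154 in the male table, a span that covers Mlc1 on the other strand. It was at 239 and 188 FPKM in the female controls and at 80.2 and 56.6 FPKM in female Snf5_CKO, and at 191 and 134 FPKM in the male controls and at 47.8 and 37.9 FPKM in male Snf5_CKO. Both Snf5_CKO libraries were far under the controls in each sex, and both differences were called (log2 fold change -1.64, SE 0.24, adjusted p = 0.0013 in females and -1.88, SE 0.25, adjusted p = 0.00496 in males, from limma). With no filter on low values the adjusted p from limma of the female difference was 0.0527.

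Pld6 (also called Zucchini), the enzyme of the outer mitochondrial membrane that cuts precursors, lies at chr11:59783893-59787657. It was at 9.64 and 12.6 FPKM in the female controls and at 16.2 and 17.0 FPKM in female Snf5_CKO. In males it was at 28.6 and 32.8 FPKM in the controls and at 15.6 and 17.1 FPKM in Snf5_CKO. Snf5_CKO was thus the higher group in females and the lower group in males, with no overlap in either. Neither difference reached the size asked for (log2 fold change 0.55, SE 0.20, adjusted p = 0.0452 in females and -0.87, SE 0.17, adjusted p = 0.0147 in males, from limma).

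Asz1 (also called GASZ), a scaffold on the mitochondria of germ cells beside Pld6, lies at chr6:18050964-18109131. It was at 90.0 and 81.4 FPKM in the female controls and at 64.8 and 60.04 FPKM in female Snf5_CKO, and at 227 and 258 FPKM in the male controls and at 59.7 and 73.6 FPKM in male Snf5_CKO. The male groups were widely separated and the female groups close together. The male difference was called (log2 fold change -1.85, SE 0.20, adjusted p = 0.0033 from limma) and the female one was not (-0.45, SE 0.17, adjusted p = 0.0548 from limma).

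Ddx4 (mouse vasa homolog), the RNA helicase that organizes the amplification of piRNAs in cytoplasmic granules and a common marker of germ cells, lies at chr13:112598333-112652389. It was at 363 and 296 FPKM in the female controls and at 249 and 203 FPKM in female Snf5_CKO, and at 565 and 458 FPKM in the male controls and at 299.9 and 236.5 FPKM in male Snf5_CKO. Fkbp6, a co-chaperone that helps to load secondary piRNAs, lies at chr5:135291704-135350044. It was at 495 and 532 FPKM in the female controls and at 352 and 355 FPKM in female Snf5_CKO, and at 559.6 and 597 FPKM in the male controls and at 333 and 361 FPKM in male Snf5_CKO. For both genes every Snf5_CKO library was below every control of its sex, by a modest amount. The log2 fold change of Ddx4 was -0.54 (SE 0.23, adjusted p = 0.0773 from limma) in females and -0.93 (SE 0.26, adjusted p = 0.0363 from limma) in males. That of Fkbp6 was -0.54 (SE 0.22, adjusted p = 0.0737 from limma) and -0.74 (SE 0.23, adjusted p = 0.051 from limma). None of these passed, although male Ddx4 did after libraries were rescaled to a common sum (-1.12, adjusted p = 0.0186 from limma).

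By mean FPKM, the order in the male controls was Mael, Fkbp6, Ddx4, Gtsf1, Asz1, Piwil2, Mov10l1, Piwil4, Pld6 and Piwil1. The libraries of Fkbp6 and Ddx4, of Ddx4 and Gtsf1, of Piwil2 and Mov10l1, and of Mov10l1 and Piwil4 overlapped, so that these neighbours were not separated by their spread. In male Snf5_CKO the order was Fkbp6, Ddx4, Mael, Asz1, Piwil2, Mov10l1, Gtsf1, Pld6, Piwil1 and Piwil4, with overlap between Piwil2 and Mov10l1 and between Gtsf1 and Pld6. In the female controls it was Mael, Fkbp6, Ddx4, Mov10l1, Asz1, Piwil2, Gtsf1, Pld6, Piwil4 and Piwil1. Among neighbours in this order, Piwil2 and Gtsf1 alone overlapped. In female Snf5_CKO it was Fkbp6, Ddx4, Mael, Mov10l1, Asz1, Piwil2, Pld6, Gtsf1, Piwil1 and Piwil4, and the overlapping neighbours were Ddx4 and Mael, Mov10l1 and Asz1, and Piwil1 and Piwil4. From control to Snf5_CKO, Mael went from the first place to the third in both sexes, and in males Gtsf1 went from the fourth to the seventh and Piwil4 from the eighth to the tenth.

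All 10 genes passed the filter on low values in both sexes. In females 4 of the 10 were called lower (Piwil4, Mael, Mov10l1 and Gtsf1), where 21.8% of all tested loci were, and 0 were called higher, where 17.2% were. In males 7 of the 10 were called lower (all but Pld6, Ddx4 and Fkbp6), where 17.5% of all tested loci were, and 0 were called higher, where 14.3% were. Without moderation of variances the counts called lower were 0 in females, where 1055 of 11642 loci were, and 1 in males (Piwil4), where 370 of 12368 were. At an unadjusted p from limma below 0.05 and with no limit on size, 8 of the 10 passed in females, where 7683 of the 11642 tested loci did, and 10 in males, where 6772 of the 12368 did. The median log2 fold change of the 10 genes was -0.55 in females and -1.87 in males, beside -0.14 and -0.07 over all tested loci. The Snf5_CKO libraries did not overlap the controls for 10 of the 10 genes in females, where that held for 81.5% of all tested loci, and for 10 of the 10 in males, where it held for 74.4%. No direction among the 10 genes turned with either rescaling of the libraries, in either sex. Because RNA was measured in bulk, fewer cells of a type and less RNA per cell cannot be told apart.

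The difference between the sexes was tested itself, as the male minus the female log2 fold change in a joint limma fit of the 8 libraries over 12200 genes named in both tables. This difference was called at an adjusted p under 0.05 for 7 of the 10 genes, where 48.0% of all tested genes were, and in each of the 7 the male fold change was the lower one, which held for 23.7% of all tested genes against 24.3% for the other direction. It was largest for Piwil4 (-3.93, SE 0.34, adjusted p = 0.000305 from limma), followed by Gtsf1 (-1.95, SE 0.50, adjusted p = 0.0156 from limma). Piwil2 (-1.42), Pld6 (-1.42), Asz1 (-1.40), Piwil1 (-1.11) and Mael (-1.03) had adjusted p-values from limma between 0.00273 and 0.0433. Mov10l1 (-0.24), Ddx4 (-0.39) and Fkbp6 (-0.20) were not called, with adjusted p-values from limma of 0.614, 0.35 and 0.543. The deleted gene, Smarcb1, also had the lower fold change in males, with a difference of -1.41 (adjusted p = 0.00805 from limma). How far the differences of the 10 genes go with that of Smarcb1 was not tested. With the replicate number as a block Ddx4 was called as well (adjusted p = 0.00367 from limma). That fit called 8 of the 10 genes and 71.15% of all tested genes, so its count is near the share of all genes. Low female levels limit how far a female fold change can go on the log2(FPKM + 1) scale, and with 0.1 FPKM added in place of 1 the difference was -3.23 for Piwil4 and still called, and -1.02 for Piwil1 and no longer called (adjusted p = 0.0899 from limma). The calls of Piwil4, Pld6 and Asz1 held with each of the 8 libraries left out in turn, whereas those of Piwil2 and Mael each ended in 6 of these 8 fits, that of Gtsf1 in 3 and that of Piwil1 in 2. Over all 19 alternatives the call of Piwil2 ended in 10, that of Mael in 8, that of Gtsf1 in 5 and that of Piwil1 in 4. Without female control replicate 1 the count of 7 became 3, where 38.6% of all tested genes were called, and without female Snf5_CKO replicate 1 it became 4, where 38.3% were, so these counts are near the share of all genes.

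**Figure D2:**
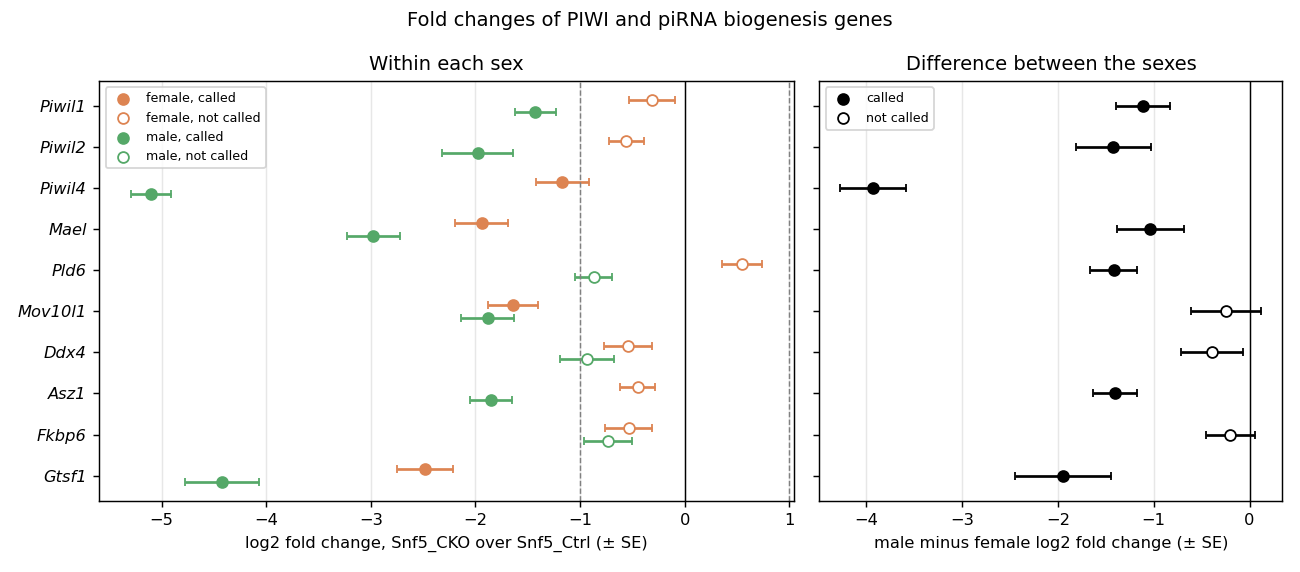
Left, log2 fold change of Snf5_CKO over Snf5_Ctrl with its SE for each gene in females (orange) and males (green), with filled points for called genes and dashed lines at a size of 1; right, the male minus the female log2 fold change with its SE. Male Piwil4 (-5.10) and Gtsf1 (-4.43) lie furthest from 0, female Pld6 (0.55) is the point above 0, and the intervals of Mov10l1, Fkbp6 and Ddx4 on the right lie nearest to 0.

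Other genes of the piRNA pathway form a list of 18, of which Spocd1 was not analysed here and Tdrd6 was under the filter in both sexes. Of the 16 tested in females, 10 were called lower and 2 higher, where 21.8% and 17.2% of all tested loci were. Their median log2 fold change was -1.38. Of the 16 tested in males, 12 were called lower and 0 higher, where 17.5% and 14.3% of all tested loci were. Their median was -1.73. At an unadjusted p from limma below 0.05, 13 of these 16 passed in either direction, where 6772 of the 12368 male loci did. The same shares, and 7683 of the 11642 female loci at that unadjusted p, stand beside the counts of the lists below. Tudor domain proteins, which bind methylated arginines of PIWI proteins and hold the granules together, were called in both directions in females. Tdrd1, the partner of Piwil2, was at 123.5 and 78.8 FPKM in the male controls and at 6.35 and 5.02 FPKM in male Snf5_CKO, and at 13.7 and 10.6 FPKM against 3.44 and 1.80 FPKM in females. Tdrd9, a helicase of the granules that hold Piwil4, was at 92.4 and 71.9 FPKM against 3.03 and 2.74 FPKM in males and at 7.33 and 10.4 FPKM against 1.94 and 1.80 FPKM in females. Both were called lower in both sexes. Tdrd12, in contrast, was called higher in females (17.2 and 19.9 FPKM in the controls, 64.6 and 55.9 FPKM in Snf5_CKO, log2 fold change 1.65, adjusted p = 0.000409 from limma) and was at 69.6 and 56.8 FPKM against 61.6 and 60.7 FPKM in males, where the groups overlapped.

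Henmt1 and Pnldc1 finish the end of the piRNA, and for both the fold change differed between the sexes (male minus female -2.33, adjusted p = 0.00062 and -2.17, adjusted p = 0.000613, from limma). Henmt1, which methylates the 3′ end, was at 25.3 and 26.7 FPKM in the male controls and at 1.05 and 1.24 FPKM in male Snf5_CKO, and at 3.57 and 2.56 FPKM against 0.752 and 0.484 FPKM in females, and was called lower in both. Pnldc1, the trimmer of piRNA precursors, was at 120.0 and 120.6 FPKM in the male controls and at 42.3 and 47.9 FPKM in male Snf5_CKO, and was called lower there. In females Pnldc1 was at 11.1 and 14.8 FPKM in the controls and at 24.1 and 21.3 FPKM in Snf5_CKO, with Snf5_CKO the higher group, as for Pld6 (log2 fold change 0.77, adjusted p = 0.0142 from limma, not called for its size). Gpat2, a mitochondrial protein needed for the first piRNAs, was at 494 and 489 FPKM in the female controls and at 99.6 and 99.2 FPKM in female Snf5_CKO. It was at 141 and 118 FPKM against 47.1 and 47.5 FPKM in males. It was called lower in both sexes, with the larger fold change in females (male minus female 0.86, adjusted p = 0.0132 from limma).

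Tex15 and Morc1, from the same list of 18, were called lower in male Snf5_CKO, as Piwil4 was. Tex15 works with Piwil4 in directing methylation. It was at 84.4 and 62.0 FPKM in the male controls and at 7.67 and 6.68 FPKM in male Snf5_CKO. The female Tex15 locus also carries the name Ppp2cb, so its values (278 and 247 FPKM against 85.1 and 82.3 FPKM) cannot be assigned to 1 gene. Morc1, a factor of transposon repression in male germ cells, was at 209 and 151 FPKM in the male controls and at 6.52 and 6.49 FPKM in male Snf5_CKO. In females Morc1 was at 6.19 and 2.53 FPKM in the controls and at 56.2 and 63.7 FPKM in Snf5_CKO. Its groups were far apart in both sexes and in opposite directions (log2 fold change -4.57, adjusted p = 0.00222 in males and 3.59, adjusted p = 0.000248 in females, from limma), and the male minus female difference was -8.17 (adjusted p = 0.000196 from limma).

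DNA methyltransferases and their cofactors act after the nuclear branch. Dnmt3l, the cofactor of new methylation in prospermatogonia, was at 101.5 and 108 FPKM in the male controls and at 1.54 and 1.95 FPKM in male Snf5_CKO, and was listed at 0 in 3 of the 4 female libraries. Dnmt3a, the enzyme of new methylation, was at 191 and 165 FPKM in the male controls and at 35.2 and 26.9 FPKM in male Snf5_CKO. In females Dnmt3a was at 2.48 and 2.23 FPKM in the controls and at 8.36 and 6.26 FPKM in Snf5_CKO. It was called lower in males and higher in females (male minus female -3.79, adjusted p = 0.00022 from limma). Of the 5 genes, 2 were called lower and 2 higher in males (Dnmt3b and Uhrf1), and of the 4 tested in females 0 were called lower and 2 higher (Dnmt3a and Dnmt3b), with 2 at an unadjusted p from limma below 0.05. The male Dnmt3b locus also spans Dnmt3c on the same strand, which the female locus does not, so its male values cannot be assigned to 1 gene. The median log2 fold change of this list was 0.73 in males and 0.78 in females.

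The machinery of the other small RNAs, miRNAs and siRNAs, is shared by most cell types. Of 9 genes tested in males, 0 were called lower and 2 higher (Ago2 and Dgcr8), with 4 at an unadjusted p from limma below 0.05 and a median log2 fold change of 0.06. In females 10 genes were tested at 9 loci, since Ago1 and Ago3 share 1 locus there, and 2 were called lower (Ago4 and Dicer1) and 1 higher (Ago2), with a median of -0.34 over the genes and -0.11 over the 9 loci. The female call of Dicer1 ended in 6 of 15 alternatives and the male call of Ago2 in 3 of 14. Ago2, the slicer of this family, was at 0.890 and 0.704 FPKM in the female controls and at 5.45 and 4.48 FPKM in female Snf5_CKO, and at 1.82 and 1.19 FPKM against 8.94 and 5.03 FPKM in males. Dicer1 cuts hairpins and long double-stranded RNA. It was at 30.6 and 21.8 FPKM in the female controls and at 13.6 and 9.01 FPKM in female Snf5_CKO. Its male libraries overlapped (17.6 and 10.1 FPKM against 19.5 and 10.0 FPKM).

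**Figure D3:**
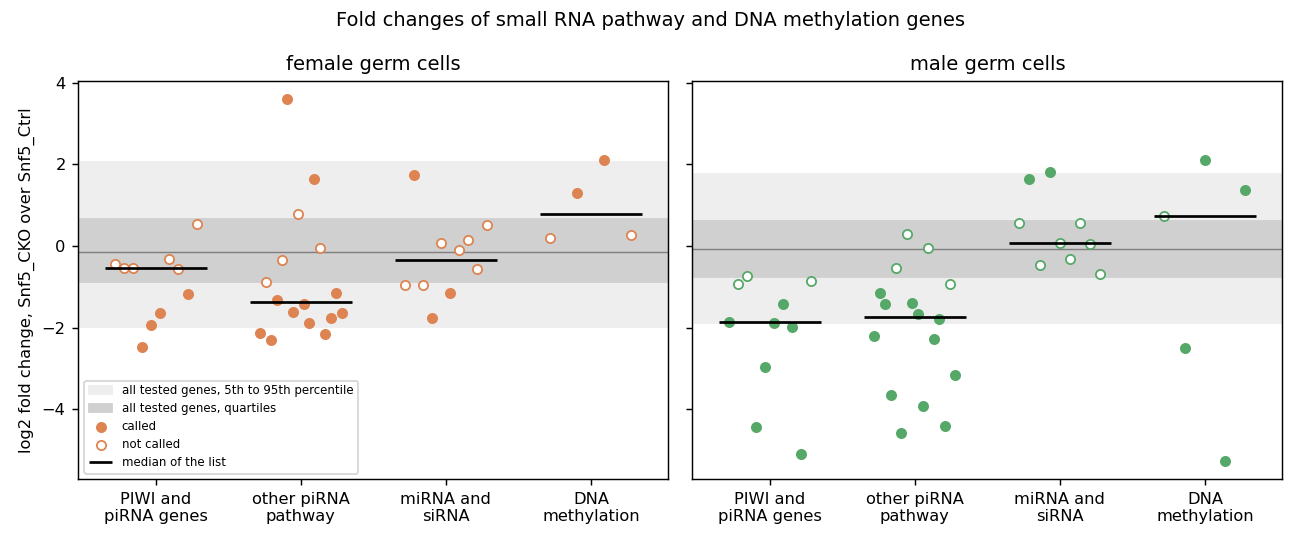
Log2 fold change of each tested gene of the 4 lists in females (left) and males (right), with filled points for called genes, a black line for the median of the list, and grey bands for the quartiles and for the 5th to 95th percentile of all tested loci. In males the medians of the 10 PIWI and piRNA genes (-1.87) and of the other piRNA genes (-1.73) lie well below that of the miRNA and siRNA genes (0.06), and Morc1 is the highest female point (3.59).

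Markers of the sorted cells and of their neighbours were read in the same libraries. Of 5 germ cell markers, of which Ddx4 is also 1 of the 10 genes, 0 were called higher and 1 lower (Dnd1) in males, and their summed level was 3884 and 4254 FPKM in the controls and 4334 and 4857 FPKM in Snf5_CKO, with Dppa3 the most abundant. Dazl, a germ cell marker that is not in the piRNA pathway, was at 697 and 606 FPKM in the male controls and at 997 and 789 FPKM in male Snf5_CKO, with both Snf5_CKO libraries above both controls and no call. In females 3 of the 5 were called higher (Dppa3, Pou5f1 and Dnd1) and 0 lower, with sums of 1188 and 1270 FPKM in the controls and 2722 and 2978 FPKM in Snf5_CKO. Dppa3 was at 41.2 and 61.3 FPKM in the female controls and at 1406 and 1632 FPKM in female Snf5_CKO. Dazl and Ddx4 were lower in female Snf5_CKO without a call, Dazl at 771 and 888 FPKM in the controls against 630 and 631 FPKM. Both prospermatogonia markers, Nanos2 and the Dnmt3l named above, were called lower in males, with sums of 163 and 179.7 FPKM in the controls and 9.11 and 13.9 FPKM in Snf5_CKO, and neither reached the filter in females. Sycp3 of the meiotic list was called lower in both sexes, at 2667 and 2445 FPKM in the female controls against 180.1 and 252 FPKM, while Stra8 was at 225 and 393 FPKM against 269 and 329.8 FPKM there, with overlap.

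Markers of Sertoli cells, the supporting cells of the testis, were higher in male Snf5_CKO, where the 10 genes were lower. All 5 were called higher in male Snf5_CKO (Sox9, Amh, Dhh, Cldn11 and Ptgds). Their summed level was 62.2 and 57.7 FPKM in the controls and 246 and 434 FPKM in Snf5_CKO. Ptgds was the most abundant, at 34.9 and 35.6 FPKM against 141 and 276 FPKM. Of 5 Leydig cell markers 3 were called lower, with sums of 85.7 and 58.2 FPKM against 19.2 and 15.1 FPKM, with a locus that joins Insl3 and Jak3 the most abundant. Of 4 stroma markers 2 were called lower (9.62 and 5.47 FPKM against 2.02 and 1.68 FPKM, Col1a1 the most abundant), and of 5 markers of blood and endothelium 0 of the 2 tested were called (40.8 and 75.0 FPKM against 40.0 and 44.1 FPKM, Hbb-bs the most abundant, with Ptprc at 0 in 1 library). Of the 4 pre-granulosa markers 1 was tested in males and was not called (1.73 and 3.57 FPKM against 2.74 and 3.05 FPKM, Fst the most abundant, with Foxl2 at 0 in control replicate 1). The part of these cells in the lower male piRNA genes was not tested.

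In females the 5 Sertoli markers were each under 1 FPKM in all libraries (sums of 0.168 and 1.04 FPKM against 1.01 and 1.58 FPKM, with Dhh, Cldn11 and Ptgds at 0 in some). Markers of pre-granulosa cells, the supporting cells of the ovary, were called higher for 2 of 4 (Fst and Irx3), with sums of 3.67 and 6.29 FPKM in the controls and 16.8 and 14.6 FPKM in Snf5_CKO, Fst the most abundant. Of 5 Leydig markers 1 was called higher, the joined locus of Insl3 and Jak3 (sums of 4.74 and 4.89 FPKM against 12.0 and 11.8 FPKM), with Cyp11a1 and Cyp17a1 at 0 in some libraries. Of 4 stroma markers 1 was called lower, Col1a1 (sums of 4.44 and 1.94 FPKM against 0.870 and 1.31 FPKM). Of 5 blood and endothelium markers 0 of the 2 tested were called, with 0 at an unadjusted p from limma below 0.05, but their sums varied within the groups (19.7 and 95.1 FPKM against 3.06 and 64.2 FPKM, Hbb-bs the most abundant, with Ptprc and Cdh5 at 0 in some). The part of these cells in the female results was not tested either.

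**Figure D4:**
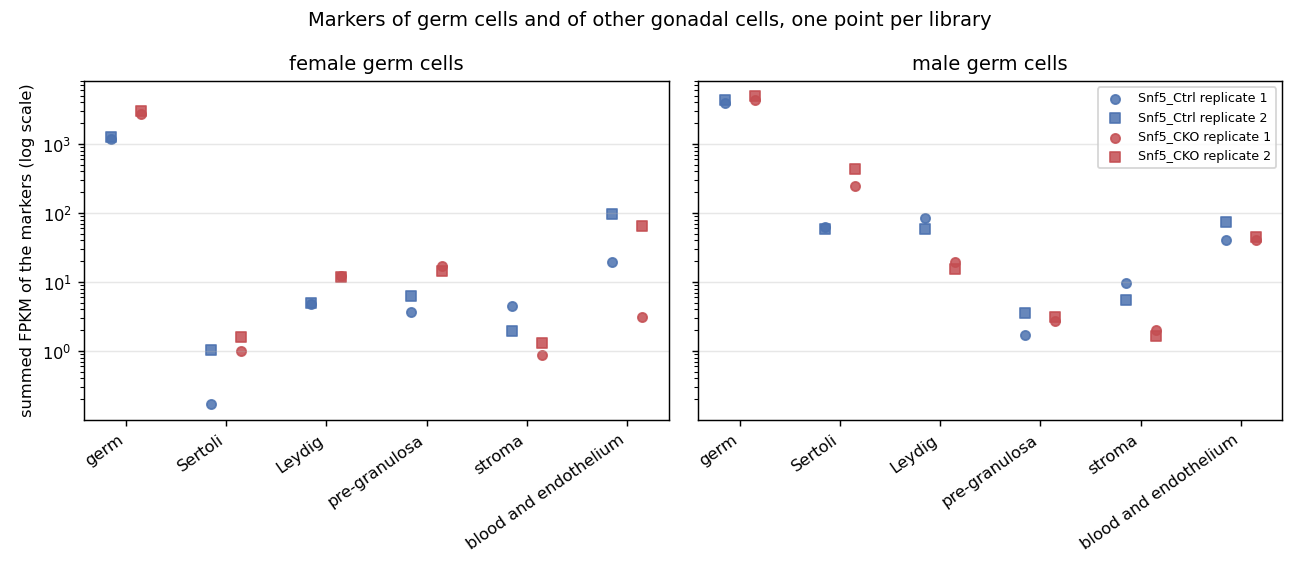
Summed FPKM of the markers of germ cells and of 5 other kinds of gonadal cells on a log axis, with 1 point per library, in female (left) and male (right) germ cells. In males the Sertoli sum lies at 246 and 434 FPKM in Snf5_CKO, above the controls at 62.2 and 57.7 FPKM, while the germ cell sum lies between 3884 and 4857 FPKM in all 4 libraries. Of that germ cell sum, Dppa3 alone gave 1754 and 2025 FPKM in the controls and 2276 and 2979 FPKM in Snf5_CKO.

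Across the 8 libraries, the 45 pairs of the 10 genes had Pearson's r of log2(FPKM + 1) from -0.03 (Pld6 and Mov10l1) to 0.98 (Mael and Fkbp6), with a median of 0.82. These values span 2 tables and 4 groups, the points of a pair share their libraries, and r is given as a description. Among 11078 other genes tested in both sexes, the patterns closest to that of Piwil4 were those of Cacnb1 (r = 0.995), Cdkn2b (0.993) and Atxn7l2 (0.993). Cdkn2b, an inhibitor of cyclin-dependent kinases, was at 9.26 and 8.07 FPKM in the male controls and at 2.34 and 2.56 FPKM in male Snf5_CKO, and at 1.93 and 1.83 FPKM against 1.15 and 0.970 FPKM in females. The closest to Piwil2 were Csnk1g1 (0.993), Syn3 (0.99) and Gga1 (0.989), and the closest to Ddx4 were Txlna (0.999), Taf2 (0.996) and Mdm2 (0.995).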

How the data were processed

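RNA-Seq of sorted E15.5 germ cells gave 8 libraries. The authors mapped paired reads with TopHat, quantified them with Cufflinks on the mm10 genome, and deposited 1 table of FPKM values per sex, each from a run of its own. The submitters' processing notes name TopHat2 2.2.1 and Cuffdiff 2.1.1, which differ from the versions in the study's methods. The version of the gene annotation is not given in the sources used here. Groups come from the sample labels. Confidence bounds fill 16 further columns, which were not used. Loci without a gene name, 4737 in the female and 6272 in the male table, were not tested, and their part of a library's FPKM ran from 5.46% to 42.1%. Where a gene had more than 1 locus, that of the highest mean FPKM was taken. Starts are counted from 0 in the tables, so 1 was added to each printed start: with it, 44.3% of named loci in females and 42.5% in males begin at an annotated transcript start, and without it 4.22% and 4.35%. The total depth is unknown, so no counting interval is given, and values near 0 are the least precise.

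The fits used limma 3.58.1 in R 4.3.3 on log2(FPKM + 1) with lmFit and eBayes with a trend, two-sided, with Benjamini-Hochberg adjustment over all loci tested. They were tested on simulated data. Moderation added 4.69 degrees of freedom to 2 in females and 3.03 to 2 in males. Across the tested loci, which are not independent, Pearson's r was 0.974 and 0.966 between the control replicates of females and males, 0.969 and 0.967 between the Snf5_CKO replicates, and 0.777 to 0.849 between genotypes. The sample labels name the runs of replicate 1 and replicate 2 in different styles. The study's methods name more than 1 sequencing instrument and read length, without assigning them to libraries. The deviations of same-numbered libraries from their group means had a correlation of 0.50 in females and 0.59 in males. A fit with the replicate number as a block is therefore 1 of the alternatives. The others were no filter, a filter at a mean of 5 FPKM, a pseudocount of 0.1, libraries rescaled to a common sum or by median of ratios, eBayes without trend, no moderation, linear FPKM and each library left out. Fits without loci of a status other than OK and without loci of several names were added after seeing the data.

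The genes named in the text are the 10 members of the pathway, Smarcb1, the lists of other piRNA, miRNA and siRNA, and DNA methylation genes, the marker lists, and the 3 genes closest in pattern to each of Piwil2, Piwil4 and Ddx4. The members and lists were chosen with earlier results of these data known, and the promoters to print were chosen after the values had been seen. Overlaps of genes come from GENCODE on GRCm38, promoters from RefSeq on GRCm38.p6. Plots were made in Python 3.11.15 with matplotlib 3.10.9.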

Additional observations from a re-analysis of the deposited data

Results flagged for a closer look

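The genes below were singled out because their fold change (Snf5_CKO over Snf5_Ctrl) differed between the sexes by the joint limma fit at an adjusted p under 0.05, where 48.0% of all tested genes did. Each value is the male minus the female log2 fold change, and a negative value means that the male fold change was the lower one. Among the 10 PIWI and piRNA biogenesis genes these were Piwil4 with -3.93, Gtsf1 with -1.95, Piwil2 with -1.42, Pld6 with -1.42, Asz1 with -1.40, Piwil1 with -1.11 and Mael with -1.03. Smarcb1, the deleted gene, had -1.41 in the same fit. Of 19 alternatives, the call ended in 10 for Piwil2, 8 for Mael, 5 for Gtsf1 and 4 for Piwil1, and in 0 for Piwil4, Pld6 and Asz1.

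Among the other piRNA pathway genes, the male fold change was the lower one for Morc1 (-8.17), Tdrd9 (-2.65), Henmt1 (-2.33), Tdrd5 (-2.24), Pnldc1 (-2.17), Tdrd1 (-2.02), Tdrd12 (-1.69) and Tex15 (-1.54), whose female locus is shared with Ppp2cb. It was the higher one for Gpat2 (0.86) and Mybl1 (1.90), a transcription factor of the meiotic piRNA program. Mybl1 was at 12.3 and 11.1 FPKM in the female controls and at 3.20 and 3.12 FPKM in female Snf5_CKO. In males it was at 1.08 and 1.68 FPKM against 1.80 and 1.99 FPKM.

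In the lists beside the pathway, the difference was -3.79 for Dnmt3a, 1.12 for Uhrf1, 1.73 for Dgcr8 and 1.5 for Ago1, whose female locus is shared with Ago3. The Dgcr8 locus of both sexes also carries the name Mir1306, and that of females Gm24572 as well. For 2 genes that were under the filter in 1 sex the value is not a comparison of 2 measured fold changes. Dnmt3l gave -5.23, which restates its male log2 fold change of -5.27, since it is near 0 in females. Ago4 gave 1.02, but its control mean was 4.68 times that of Snf5_CKO in females and 4.09 times in males, where its low FPKM are compressed by the added 1.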

How the results depend on the processing

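Of 298 fold changes of the 10 genes under the alternatives, 282 stayed on the same side of the threshold in the same direction, 15 lost a call, 1 gained one and 0 changed direction, and of 918 for the genes beside them 855, 37, 7 and 19. The count of the 10 genes called lower was 4 in females and 7 in males. With each library left out, the log2 fold change of female Piwil4 ran from -1.47 to -0.87. The other called genes kept a log2 fold change of at least 1 in size. A fit with 1 library left out assumes that the lone library varies like the other group. The calls of Piwil4 and Mov10l1 in females ended with no filter on low values, which left 2 of the 10 called lower, where 1806 of 24281 loci were. Without moderation of variances, which leaves 2 degrees of freedom, the counts were 0 in females and 1 in males (Piwil4). Over all loci that fit called 1055 lower and 866 higher in females (2543 and 2002 with moderation) and 370 and 279 in males (2160 and 1772). It left 4 lower and 1 higher of the other piRNA genes in females and 3 lower in males, 0 lower miRNA and siRNA genes in females and 0 higher in males, 1 higher DNA methylation gene in females, and 1 lower and 0 higher in males.

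The count of the 10 genes whose fold change differed between the sexes, 7, was 4 with no filter (28.35% of all tested genes called), 4 without moderation (38.46%) and 3 to 6 with each library left out (38.02% to 43.17%), so that the lowest of these counts are near the share of all genes: 3 without female control replicate 1, 4 without female Snf5_CKO replicate 1, and 5 or 6 without each of the others. With libraries rescaled to a common sum it was 5 (29.7% of all tested genes). The replicate block made it 8, adding Ddx4 (adjusted p = 0.00367 from limma), with 8680 genes called in all against 5860, and it changed no other call of the 10 genes. The difference for Mov10l1 lay between -0.50 and 0.014 with each library left out.

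Median-of-ratios rescaling shifted the median log2 fold change of all loci by 0.15 in females and 0.14 in males, and the common sum by -0.16 in males, where 34.8% of called loci were higher against 45.1%. With median-of-ratios the balance turned, and 54.1% of called loci were higher in males (1805 lower and 2129 higher) and 52.6% in females (2098 and 2328), against 44.05% in females in the main analysis. Without a filter 1083 male loci were higher, and with a mean of at least 5 FPKM 1353 were lower. In small lists, the lower miRNA and siRNA genes in females, 2 in the main analysis, were 4 with a pseudocount of 0.1. These 4 include Ago1 and Ago3, which share 1 locus there. The count was 1 with no filter, with median-of-ratios or on linear FPKM. With each library left out, the female log2 fold change of Dicer1 ran from -1.42 to -0.88 and that of Ago4 from -1.95 to -1.58. The higher miRNA and siRNA genes were 0 in females at a mean of at least 5 FPKM. In males they were 1 at that mean, with no filter, on linear FPKM or without loci of several names. At that mean 1 DNA methylation gene was higher in females.

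Directions turned for genes near 0 and without a call. With median-of-ratios these were Tdrd5 (0.12) and Drosha (0.062) in females and Tdrd12 (0.12) in males, and with the common sum Dicer1 (-0.11) and Tarbp2 (-0.15) in males. With each library left out, the log2 fold change ran in females from -0.36 to 0.27 for Tdrd5, -0.44 to 0.23 for Drosha, -0.12 to 0.27 for Dgcr8 and -0.064 to 0.45 for Dnmt1, and in males from -0.19 to 0.10 for Tdrd12, -0.38 to 0.51 for Dicer1, -0.71 to 0.080 for Drosha and -0.11 to 0.19 for Tarbp2. The 2 fits added after seeing the data, without loci of a status other than OK and without loci of several names, changed no call of the 10 genes. The cause of these changes was not tested beyond what each setting removes by its construction. With no counts in the tables, the precision that depth gives to low values is unknown.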

Other observations

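Tdrd7, Rnf17, Tdrkh and Exd1 are also on the list of other piRNA genes. Tdrd7 (log2 fold change -2.17 in females and -1.78 in males) and Rnf17 (-1.43 and -1.68) were called lower in both sexes. Tdrkh was called lower in females alone (-1.16, with -0.93 in males) and Exd1 in males alone (-1.16, with -0.87 in females). Mybl1 and Btbd18, which regulate the transcription of piRNA precursors, complete this list with Hsp90aa1. Btbd18 was called lower in both sexes, at 52.5 and 40.7 FPKM in the female controls and at 12.1 and 7.97 FPKM in female Snf5_CKO, and at 42.0 and 28.3 FPKM against 7.40 and 5.98 FPKM in males. Mybl1 was called lower in females alone, with a test of the difference between the sexes of 1.90 (adjusted p = 0.00108 from limma). Hsp90aa1, the chaperone that loads PIWI proteins and serves many other clients, was at 1586 and 2020 FPKM in the male controls and at 1088 and 1408 FPKM in male Snf5_CKO and was not called in either sex (log2 fold change -0.53 in males and -0.34 in females, adjusted p = 0.292 and 0.352 from limma).

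The share of FPKM on loci without a gene name differed between libraries of the same group, except in the female controls, where it was nearly level. In males replicate 2 had the larger share in both genotypes. It was 6.56% and 42.1% in the male controls, 5.46% and 35.4% in male Snf5_CKO, 36.7% and 35.3% in the female controls, and 9.94% and 28.2% in female Snf5_CKO.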
